A study of Mus musculus with 19 samples.

Results

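A set of 10 genes of the cellular defense against peroxides and superoxide were followed in ribosome-bound mRNA of mouse spinal cord cholinergic neurons. They were chosen by symbol, with earlier results of these data known. The set holds the 6 peroxiredoxins (Prdx1 to Prdx6), the mitochondrial superoxide dismutase Sod2, the glutathione peroxidases Gpx1 and Gpx4, and catalase (Cat). All 10 were found among the 50559 genes of the table, and all 10 were among the 15572 genes that passed the filter on low counts. The libraries came from 10-wk-old male C57BL/6J mice labelled wild-type that carried ChAT-Cre and 1 RiboTag allele (ChAT-Cre;RiboTag fx/+), in which Cre recombinase made from the choline acetyltransferase gene adds a hemagglutinin tag to a protein of the ribosome. The tag therefore marks cells that express or once expressed this driver, and every group shares it. Mice were kept in 12 h of light and 12 h of dark, and spinal cords were taken at ZT0, ZT4, ZT8, ZT12, ZT16 and ZT20 (Zeitgeber time, hours after lights on), with 3 immunoprecipitates per time point. One further library, the pooled input, represents spinal cord RNA before precipitation and has no replicate.

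Peroxiredoxins reduce hydrogen peroxide and organic peroxides with a reactive cysteine. Most of them are returned to the reduced state by thioredoxin, whereas Prdx6 uses glutathione. Prdx1, Prdx2 and Prdx6 are mainly cytosolic, Prdx3 lies in mitochondria, Prdx4 in the endoplasmic reticulum and Prdx5 in mitochondria, peroxisomes and cytosol. Sod2 turns mitochondrial superoxide into hydrogen peroxide, which Gpx1 and catalase remove, and Gpx4 reduces lipid peroxides in membranes and so guards against ferroptosis. Peroxiredoxins are also known for daily cycles of oxidation that have been described in red blood cells, and neurons are held to depend strongly on this defense because of their high oxygen use.

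Library totals were 6302150 to 22406844 expected counts in the immunoprecipitates and 15239792 in the input, and the 10 genes together held 0.209% to 0.331% of the counts of an immunoprecipitate against 0.168% of the input. Replicates within a time point had a common coefficient of variation of 19.2% in edgeR. The summed level of 7 cholinergic markers was 4252 to 5088 CPM (counts scaled to library size) in the immunoprecipitates and 444 CPM in the input, and that of 7 oligodendrocyte markers was 1533 to 2932 against 21024 CPM. Markers of astrocytes (132 to 206 against 2843 CPM), microglia (9.13 to 14.7 against 192 CPM) and erythrocytes (211 to 760 against 1953 CPM) were also far below the input, and no list was at 0. Those of inhibitory neurons (247 to 345 against 795 CPM) and excitatory neurons (42.5 to 76.9 against 162 CPM) were less far below it. By the 2-fold rule given below, 6 of the 7 cholinergic markers were enriched and 3 of 4 inhibitory markers depleted. Values below are CPM on a scale common to all 19 libraries (TMM) unless a level per kilobase is named. In such bulk samples, fewer cells of a type and less RNA per cell cannot be told apart.

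Clock activators bind E-boxes and the antioxidant factor NRF2 binds antioxidant response elements, so the promoters of the 10 genes were searched for both. RefSeq promoters (GRCm38.p6, 250 bases before to 50 bases after the start) were found for 9 of the 10 genes, Prdx6 being the exception. Both strands were searched for CACGTG, the E-box, and for TGACNNNGC, the core of the antioxidant response element. CACGTG occurred in 7.15% of 32851 promoters and TGACNNNGC in 12.4%, or, by gene, in 8.09% and 14% of 27025 genes. Among the 9 members, the first was found in 1 (Prdx4) and the second in 1 (Prdx1), shares near those of all genes, and the motifs did not overlap. Both promoters are printed because they are the members that hold a match, which is marked in capitals. The Prdx1 window is chr4:116685349-116685648 on the plus strand, and the Prdx4 window is chrX:155338411-155338710 on the minus strand.
Prdx1: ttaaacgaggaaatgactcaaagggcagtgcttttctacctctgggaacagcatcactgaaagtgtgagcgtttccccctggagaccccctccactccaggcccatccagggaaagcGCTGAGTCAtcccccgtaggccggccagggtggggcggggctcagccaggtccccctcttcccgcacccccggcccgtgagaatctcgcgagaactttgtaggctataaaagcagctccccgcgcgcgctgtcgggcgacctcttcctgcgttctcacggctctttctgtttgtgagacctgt
Prdx4: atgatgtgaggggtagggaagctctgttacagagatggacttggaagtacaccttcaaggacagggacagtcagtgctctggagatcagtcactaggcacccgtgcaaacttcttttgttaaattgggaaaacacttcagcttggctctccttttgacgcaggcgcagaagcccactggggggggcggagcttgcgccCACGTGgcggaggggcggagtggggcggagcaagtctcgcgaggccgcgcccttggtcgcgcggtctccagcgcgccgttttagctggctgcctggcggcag
In the Prdx1 promoter the match lies on the strand opposite to the gene. A match describes letters only and is not evidence of binding. The windows of Prdx2, Prdx3, Prdx5, Sod2, Gpx1, Gpx4 and Cat did not hold these letters.

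**Figure D1:**
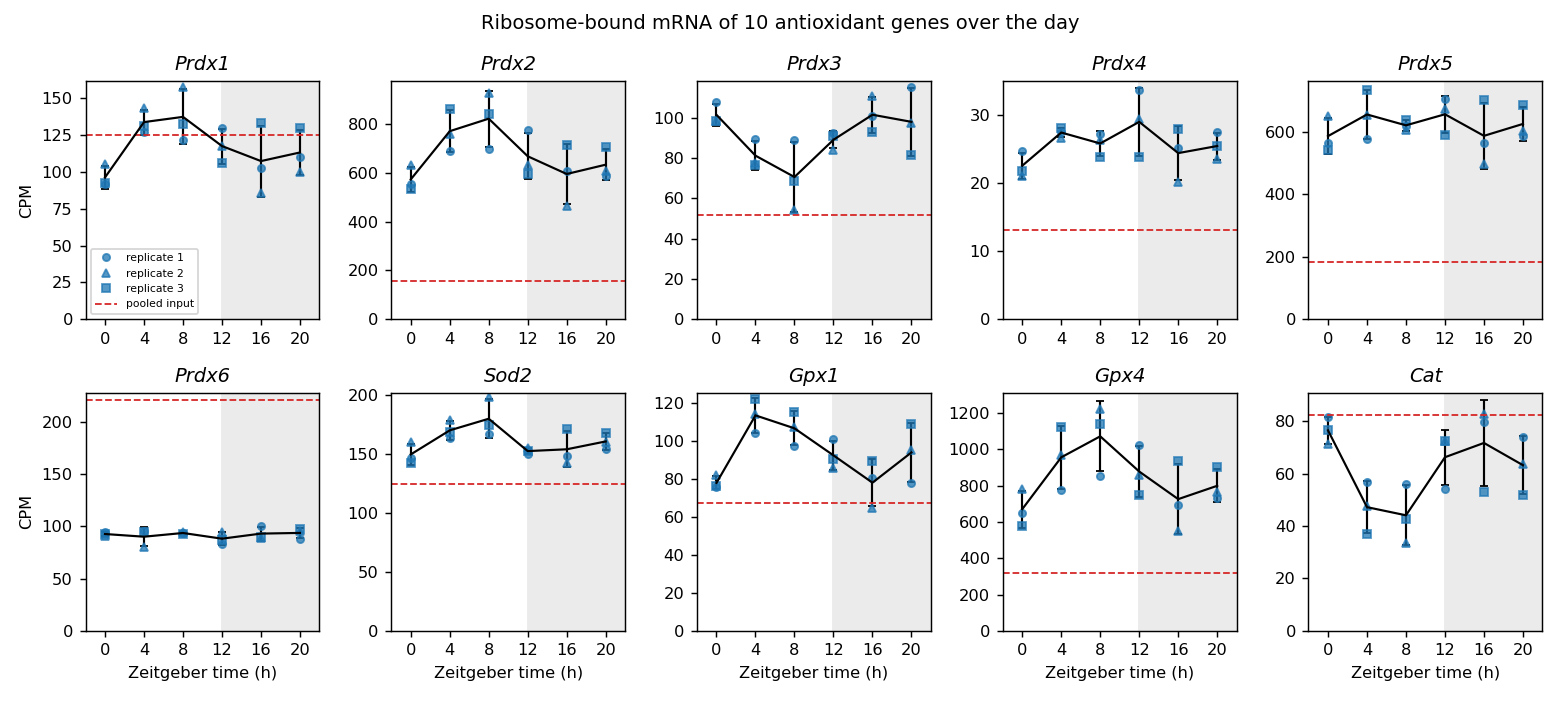
Level of each gene in CPM (y axes start at 0) against Zeitgeber time in hours. Symbols are single immunoprecipitates, the line and bars are the mean and SD of 3, the dashed line is the pooled input and the gray area is the dark period. Gpx4, Prdx2, Prdx1 and Gpx1 stood highest at ZT4 or ZT8, Cat and Prdx3 stood lowest there, and Prdx6 stayed between 79.8 and 101 CPM.

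To ask which genes rank highest in these neurons, levels were compared per kilobase of the longest coding transcript. Gpx4 led with 854 ± 192 CPM per kb (SD, n = 18 here and for the following levels per kilobase), before Prdx5 with 493 ± 50.5 and Prdx2 with 421 ± 75.6. Next came Gpx1 with 87.4 ± 15.1, Prdx3 with 61.1 ± 10.2, Prdx1 with 51.3 ± 8.57 and Prdx6 with 38.5 ± 2.16 CPM per kb, and the lowest were Sod2 with 27.5 ± 2.44, Prdx4 with 26.1 ± 3.29 and Cat with 23.5 ± 5.95. The ranges of 1 SD overlapped between the neighbors Prdx5 and Prdx2, Prdx3 and Prdx1, Sod2 and Prdx4, and Prdx4 and Cat. By this overlap their order was not resolved. The SD spans all time points, and the genes were not compared within each library. The scale depends on the transcript length. With the median coding transcript Gpx4 stood at 886 ± 199 and Prdx5 at 825 ± 84.4 CPM per kb. By the same overlap the lead of Gpx4 was not resolved. Prdx1 then stood above Prdx3, and Cat 8th.

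The genes were next compared with the pooled input, which asks whether a transcript is more abundant on the tagged ribosomes than in the cord as a whole. With 1 input library there is no replicate check on its side, and a gene was called enriched or depleted when its mean ratio reached 2-fold with each of the 18 immunoprecipitates on the same side of the input. By this rule 15.2% of 16828 genes were enriched and 24.3% depleted. Of these genes 16723 had counts in the input, and those without any could still be called enriched. Prdx2, an abundant neuronal and red cell peroxiredoxin, was at 679 ± 122 CPM against 158 CPM in the input, whose 95% Poisson interval ran from 152 to 163. The log2 ratio of 2.11 was the highest of the 10. Prdx5 followed with 623 ± 63.7 against 183 CPM (177 to 189), a log2 ratio of 1.77. Gpx4 reached 850.1 ± 191 against 318 CPM (310.2 to 326), a log2 ratio of 1.42. These 3 genes were enriched.

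Prdx6 stood at the other end. This peroxiredoxin, which also has phospholipase activity and is known for its high level in astrocytes, was at 91.9 ± 5.16 CPM against 221 CPM in the input (214 to 228), so that the input was 2.40-fold higher. It was the 1 depleted gene of the 10. Prdx4, the peroxiredoxin of the secretory pathway, exceeded the input in all 18 libraries with a log2 ratio of 0.98, and mitochondrial Prdx3 did so with 0.81, but both stayed under 2-fold. Sod2 was above the input in all 18 libraries with a log2 ratio of 0.37 and Gpx1 in 17 of 18 with 0.48. Prdx1 lay on either side of it (8 above and 10 below) at -0.09, and Cat was below it in 17 of 18 libraries at -0.42. Over the 10 genes the median log2 ratio was 0.65, beside -0.09 over all genes.

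**Figure D2:**
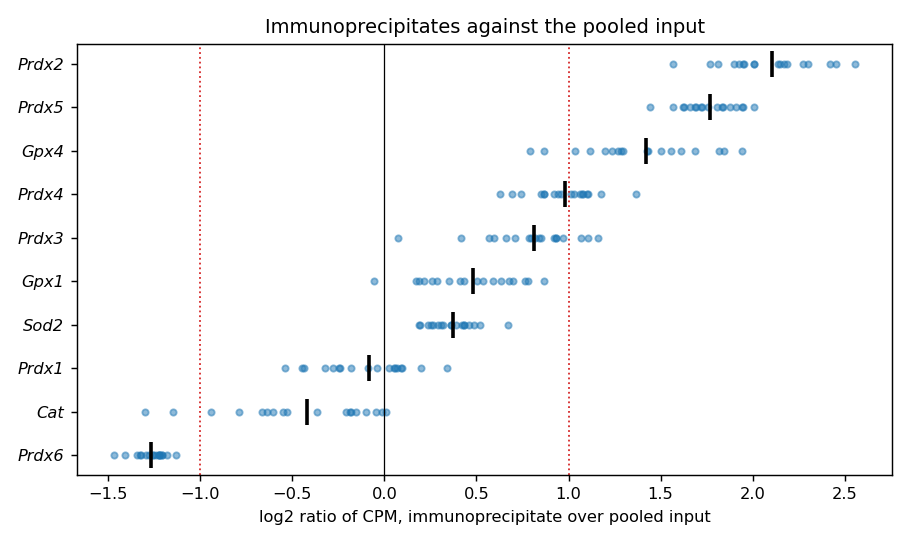
Log2 ratio of CPM in each of 18 immunoprecipitates over the pooled input (points) and the ratio of the mean (black ticks), ordered by that ratio. Dotted lines mark 2-fold. Prdx2, Prdx5 and Gpx4 have their means beyond 2-fold above the input and Prdx6 beyond 2-fold below it.

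Levels were compared between 3 pairs of time points, first ZT8 against ZT0. At ZT8, in the light period, Gpx4, Prdx1, Prdx2 and Gpx1 were higher than at ZT0 and Prdx3 and Cat were lower. Each differed by 1.38-fold to 1.73-fold in either direction. In edgeR's quasi-likelihood test, 6 of the 10 genes passed a false discovery rate (FDR) of 0.05, 4 upward and 2 downward, where 18% of all 15572 genes passed (8.95% upward and 9.02% downward). The values of 7 genes did not overlap between the 3 and 3 libraries, against 34.6% of all genes, and 7 were under an unadjusted p of 0.05 (31.6% of all genes). The median log2 fold change of the 10 genes was 0.24, beside -0.00296 over all genes. This pair was taken up because earlier results of the same libraries had placed most differences at these times. Its FDRs are not corrected for that choice. Other pairs, such as ZT4 against ZT0, were not tested here.

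Gpx4, the lipid peroxide reductase, showed the largest rise of the 10 in this pair. It measured 651, 779.9 and 579.7 CPM at ZT0 and 776, 971 and 1121 CPM at ZT4, then 854, 1221 and 1141 CPM at ZT8. Its values were 1026, 859 and 749 CPM at ZT12, 691, 550.4 and 936 CPM at ZT16 and 729, 766 and 903 CPM at ZT20. Every ZT8 library lay above every ZT0 library, whereas ZT16 replicate 3 lay within the range of ZT8. The change from ZT0 to ZT8 was 0.69 on the log2 scale (SE 0.18, edgeR FDR = 0.0145), a 1.61-fold rise. Reads of the Gpx4 pseudogene copy Gpx4-ps2 took 4.16% to 5.80% of the sum of both, and counts of Gpx4 were not whole in 18 of 19 libraries.

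The cytosolic Prdx2 and Prdx1 were also higher at ZT8 than at ZT0. Prdx2 was at 553, 634 and 536 CPM at ZT0, 699, 928 and 844 CPM at ZT8, 607, 466 and 716 CPM at ZT16 and 587, 609 and 708 CPM at ZT20. Its ZT8 values were above all ZT0 values by 0.53 on the log2 scale (SE 0.14, edgeR FDR = 0.0167). Prdx1 stood at 91.6, 105 and 92.2 CPM at ZT0 and at 122, 158 and 133 CPM at ZT8, with no overlap and a log2 change of 0.52 (SE 0.14, edgeR FDR = 0.0177). At ZT4 Prdx1 was already at 127, 143 and 131 CPM and Prdx2 at 692, 763 and 862 CPM, all above their ZT0 values. Exons of Prdx2 overlap Junb and Rnaseh2a on the opposite strand and those of Prdx5 overlap Trmt112. The kit keeps strand, but whether the counting used it is not given in the sources used here. Counts of Prdx2 were not whole in 17 libraries and those of Prdx1 in 15, although the copy Prdx1-ps had 0 counts. Which genes shared these reads was not tested.

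Gpx1, the most abundant glutathione peroxidase of most tissues, had its highest mean at ZT4, where its values overlapped those of ZT8. It read 75.6, 81.8 and 76.3 CPM at ZT0, 104, 114 and 122 CPM at ZT4, 97.4, 107 and 115 CPM at ZT8 and 80.4, 64.4 and 89.2 CPM at ZT16. All 3 libraries of ZT4 and of ZT8 lay above those of both ZT0 and ZT16. The rise to ZT8 was 0.46 (log2, SE 0.13, edgeR FDR = 0.0193). Sod2 was at 147, 159.7 and 142 CPM at ZT0 and 167, 198 and 174 CPM at ZT8, a difference of 0.28 with no overlap that narrowly missed the threshold (edgeR FDR = 0.0508).

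Cat and Prdx3 moved the other way. Cat, the peroxisomal enzyme that splits hydrogen peroxide, measured 81.5, 71.3 and 76.8 CPM at ZT0, 56.9, 47.6 and 37.1 CPM at ZT4 and 56.2, 33.3 and 42.8 CPM at ZT8. It stood at 54.1, 72.3 and 72.4 CPM at ZT12, 79.6, 82.7 and 52.8 CPM at ZT16 and 74.0, 63.7 and 51.9 CPM at ZT20. The ZT8 values were all below those of ZT0, by -0.79 on the log2 scale (SE 0.20, edgeR FDR = 0.0115), and Cat at ZT0 was 1.73-fold higher. Prdx3, the main peroxidase of the mitochondrial matrix, was at 108, 98.4 and 98.3 CPM at ZT0 and at 88.8, 54.2 and 68.8 CPM at ZT8, again without overlap and with a log2 change of -0.52 (SE 0.15, edgeR FDR = 0.0199). At ZT16 it was at 101, 111 and 92.9 CPM.

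Prdx4, Prdx5 and Prdx6 were not called. Prdx5 was at 565, 653 and 543 CPM at ZT0 and 619, 605 and 639.9 CPM at ZT8, with a log2 change of 0.09 (95% interval, -0.16 to 0.34). Prdx4, the lowest of the 10 in CPM at 20.2 to 33.8, changed by 0.20 (-0.09 to 0.50). Prdx6 differed by 0.02 (-0.18 to 0.22). Over all 18 immunoprecipitates Prdx6 had a coefficient of variation of 5.62%, and 0.841% of the genes tested varied less, the median of all genes being 21.2%. Low counts raise this coefficient, and genes of a level like that of Prdx6 were not compared separately. Cat had the highest coefficient among the 10, at 25.3%.

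The calls at ZT8 against ZT0 rested on few libraries. No member passed without ZT0 replicate 1 (3.99% of all genes did) or without ZT8 replicate 2 (1.72%), and 1 passed without ZT0 replicate 3 (7.05%) or ZT8 replicate 3 (6.99%). The direction of the 6 genes was kept in each of these fits, with Gpx4 between 0.57 and 0.81 and Cat between -1.02 and -0.63 on the log2 scale when any 1 of the 18 libraries was left out.

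**Figure D3:**
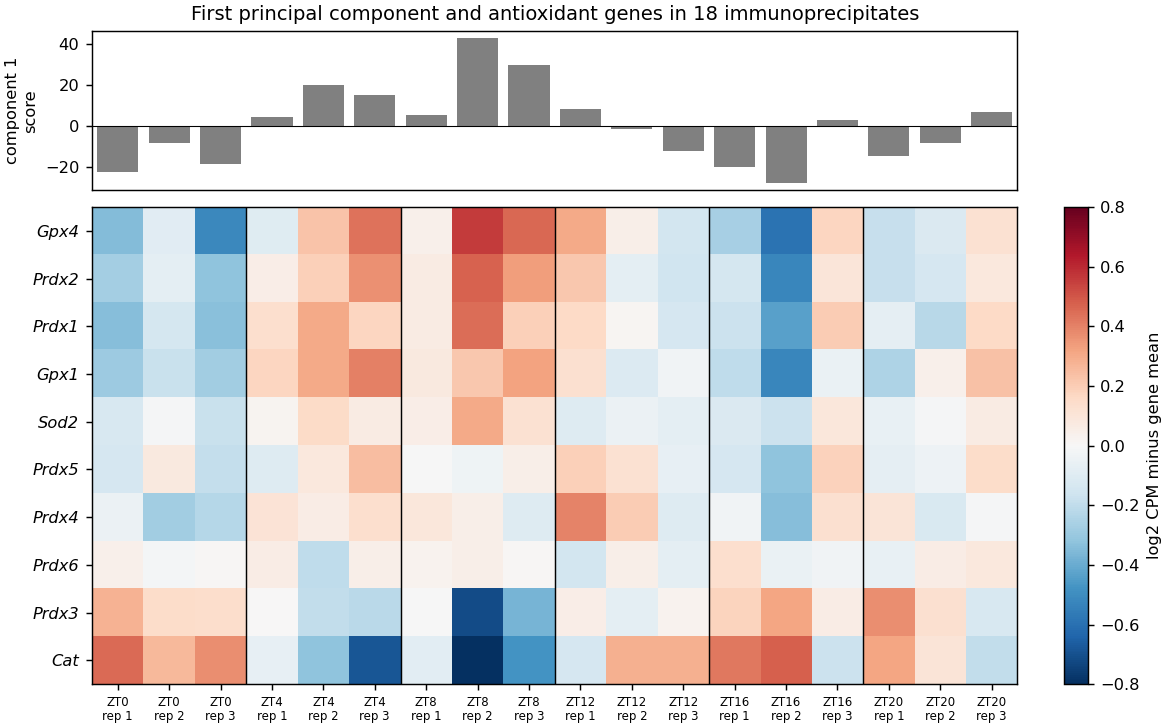
Upper part, score of each immunoprecipitate on the first principal component of the more highly expressed genes, and lower part, log2 CPM of each gene minus its mean over the 18 libraries (colors from -0.8 to 0.8). ZT8 replicate 2 has the highest score, with Gpx4, Prdx2 and Prdx1 at their highest and Cat and Prdx3 at their lowest.

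The members' values were set beside the main axis of the more highly expressed genes, those with a mean log2 CPM above 3. The first principal component held 52.8% of the variance of log2 CPM of these genes. Its scores, whose sign is arbitrary, were -22.3, -8.29 and -18.8 at ZT0, 5.03, 42.6 and 29.7 at ZT8 and -20.1, -27.9 and 2.81 at ZT16. Within ZT8 the order of scores (replicates 2, 3 and 1) was also the order of Gpx4, Prdx2 and Prdx1 from high to low and of Cat and Prdx3 from low to high. Within ZT8 Gpx1 was highest in replicate 3 instead. Within ZT16 the replicate with the highest score, replicate 3, had the highest Gpx4, Prdx2, Prdx1 and Gpx1 and the lowest Cat and Prdx3. Gpx4 and Prdx2 also followed the scores within ZT12 and ZT20, but not within ZT0 or ZT4. At ZT4 replicate 2 scored highest (19.9 against 15.1 in replicate 3), whereas Gpx4 and Prdx2 were highest in replicate 3. Marker genes of cell types moved as well. At ZT8 against ZT0, 4 of 7 cholinergic, 2 of 4 inhibitory neuron and 1 of 7 oligodendrocyte markers were called lower, 1 of 5 microglia markers tested was called higher, and no astrocyte, endothelial, erythrocyte or excitatory neuron marker was called. The summed level of the inhibitory list was 325 to 345 CPM at ZT0 and 247 to 303 CPM at ZT8, and that of the astrocyte list 168 to 189 and 132 to 166 CPM, both without overlap. The cholinergic sum overlapped (4387 to 4836 and 4259 to 4749 CPM), as did those of the other lists. At ZT16 against ZT8, 5 of 7 cholinergic and 1 of 7 oligodendrocyte markers were called higher and 1 microglia marker lower. Of the sums, the excitatory list alone was apart, with 47.7 to 52.7 CPM at ZT16 and 55.2 to 73.4 CPM at ZT8. The erythrocyte sum was highest at ZT12 (605 to 760 CPM), and at 227 to 339 CPM at ZT0 and 236 to 430.4 CPM at ZT8 its ranges overlapped. Red cells also express Prdx2, Cat and Gpx1. Transcript length moved too, with a median log2 change at ZT8 against ZT0 of 0.12 among genes with transcripts of 102 to 2051 bases, which include Gpx4, Gpx1, Prdx2, Prdx3, Prdx4 and Prdx5, and of -0.09 to -0.02 in the bins of longer genes. The part of any of these in the result was not tested.

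ZT16 against ZT8 was also taken up because earlier results of the same libraries had placed most differences at these times. Its FDRs are likewise not corrected for that choice. This pair shares the ZT8 libraries with the comparison of ZT8 against ZT0. Here 5 of the 10 genes passed, where 16.9% of all genes did (9.11% higher and 7.8% lower at ZT16), and 7 were under an unadjusted p of 0.05 (31% of all genes). Prdx2 (log2 -0.47, edgeR FDR = 0.0292), Gpx1 (-0.46, FDR = 0.0210) and Gpx4 (-0.57, FDR = 0.0348) were lower at ZT16, and Prdx3 (0.52, FDR = 0.0205) and Cat (0.70, FDR = 0.0210) were higher. Only Gpx1 and Prdx3 had no overlap between the 3 and 3 values (27.2% of all genes), and ZT16 replicate 3 lay within the ZT8 range for Gpx4, Prdx2 and Cat. Prdx1 (-0.37, FDR = 0.0848) and Sod2 (-0.23, FDR = 0.0996) did not pass. No member passed when ZT8 replicate 2, ZT8 replicate 3, ZT16 replicate 1 or ZT16 replicate 2 was left out, and 0.545%, 5.84%, 5.53% and 0.45% of all genes then passed.

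The study singles out ZT8 and ZT20 as times of opposing peaks. Between them no member and none of the 15572 genes passed in edgeR (0 genes, 0%). With p taken before adjustment, 3474 genes (22.3%) and 4 members were under 0.05, namely Prdx2, Prdx3, Gpx4 and Cat, with log2 changes at ZT20 of -0.38 (95% interval, -0.68 to -0.08), 0.47 (0.16 to 0.77), -0.43 (-0.80 to -0.05) and 0.51 (0.10 to 0.93). DESeq2 called 1114 genes and 1 member, Prdx3. Without ZT8 replicate 1, edgeR called 4 members and 2320 genes (14.4%). The values of all 10 genes overlapped between ZT8 and ZT20, where 20.9% of all genes did not overlap. Prdx6 differed by -0.00148, with an interval of -0.20 to 0.20.

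**Figure D4:**
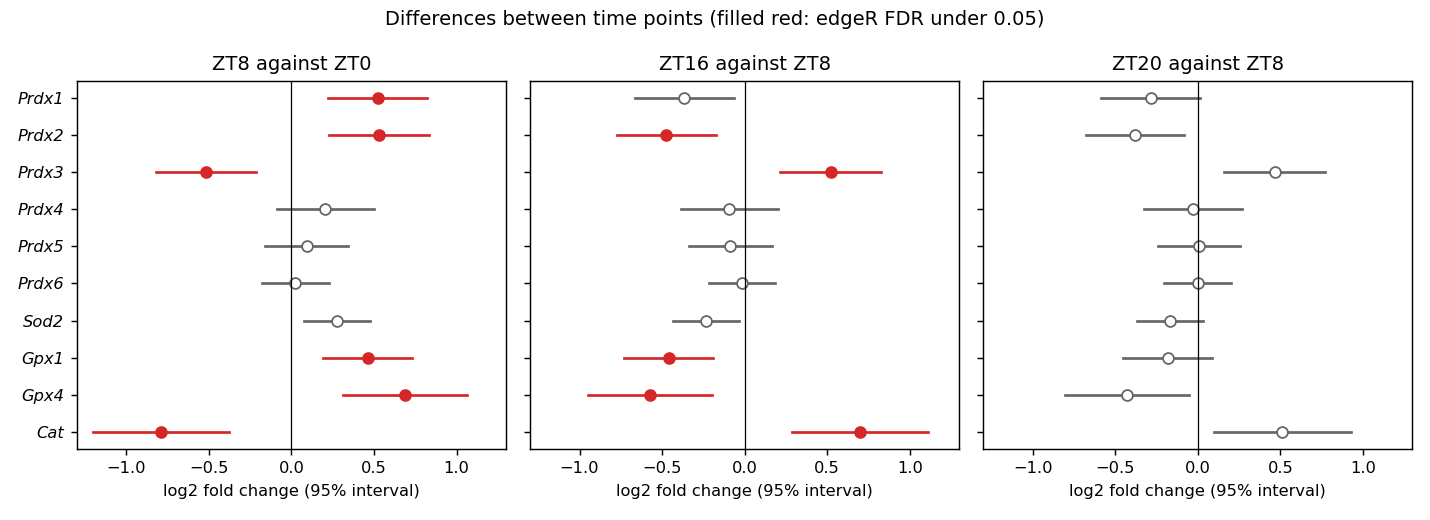
Log2 fold change and 95% interval of each gene for 3 pairs of time points, filled red where the edgeR FDR was under 0.05. The pairs share the ZT8 libraries. A total of 6 genes are filled for ZT8 against ZT0, 5 for ZT16 against ZT8 and 0 for ZT20 against ZT8.

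Rhythm over the whole day was tested next. Few members were called, and among 10 genes counts of 1 or 2 are no result about the members. A 24-h cosine fitted to the counts was called for 1 member, Prdx3 (amplitude 0.24 on the log2 scale, peak at ZT19.4, edgeR FDR = 0.0487), where 6.24% of all genes passed. Cat had the largest fitted amplitude, 0.33 with a peak at ZT18.8, but missed the threshold (edgeR FDR = 0.0831), and so did Prdx2 (0.23, peak at ZT7.22, FDR = 0.0579), Gpx4 (0.27, peak at ZT7.91, FDR = 0.0712) and Gpx1 (0.21, peak at ZT6.26, FDR = 0.0945). A test for any difference among the 6 time points called Gpx1 (edgeR FDR = 0.0351) and Cat (FDR = 0.0488), where 6.74% of all genes passed. These calls were fragile. Prdx3 lost its cosine call in 14 of the 18 fits that left out 1 library, while 6 members passed without ZT20 replicate 3, 4 without ZT16 replicate 3 and 3 without ZT12 replicate 3. The count over all genes moved as well, to 2668 (16.6%), 1546 (9.61%) and 1610 (10.1%) in these 3 fits, and it ranged from 2 to 2668 over the 18. The test of any time point called no member in 10 of those fits and 5 without ZT8 replicate 1 (15.2% of all genes) or ZT16 replicate 3 (12.8%), with 5 to 2454 genes called in all over the 18 fits.

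JTK_Cycle, a rank test for rhythms, called no member here after adjustment across genes (6 genes in all, 0.0385%). The study used the same test on these time points and reports far more rhythmic transcripts at an adjusted threshold. The study's count is nearer to the one found here with adjustment within each gene alone. Why the counts differ was not tested. With the p-value adjusted within each gene alone, which 15.8% of all genes passed, Prdx3 (p = 0.00319, JTK_Cycle exact null) and Gpx1 (p = 0.0181, exact null) were under 0.05. All 10 members, called or not, fitted best at a period of 20 h, the shortest that was tried and the one to which ties went. Many genes of the pathway lists below, such as Txn1, Glrx5 and Sod1, also fitted best there, so this is not particular to the members. The share over all genes was not counted.

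The genes most like the 3 highest members in CPM were named by the correlation of log2 CPM over the 18 immunoprecipitates, which share their scaling and the main axis described above. Gpx4 was closest to Rpl18 (r = 0.990, rho = 0.994), Gstp1 (r = 0.990, rho = 0.986) and Pebp1 (r = 0.990, rho = 0.973). Prdx2 was closest to Cox4i1 (r = 0.988, rho = 0.977), Chchd2 (r = 0.988, rho = 0.990) and Jpt1 (r = 0.983, rho = 0.950). Such closeness was common, as 525 genes exceeded 0.9 with Gpx4 and 541 with Prdx2. Prdx5 had only 8, led by Selenom (r = 0.940, rho = 0.934), Clpp (r = 0.925, rho = 0.884) and Znhit1 (r = 0.924, rho = 0.957).

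The rest of the pathway was read from 5 lists of 42 genes, all of which were tested. At ZT8 against ZT0, 9 were higher and 5 lower, beside the shares of 8.95% and 9.02% of all genes given above. In the thioredoxin list, 1 of 9 rose and 1 fell. Thioredoxin itself (Txn1), the electron donor of most peroxiredoxins, went from 118, 157 and 127 CPM at ZT0 to 165, 281 and 245 CPM at ZT8, a log2 change of 0.80 (SE 0.21, edgeR FDR = 0.0139). Thioredoxin reductase Txnrd1 (-0.20, FDR = 0.273) and sulfiredoxin Srxn1 (-0.12, FDR = 0.338), which repairs overoxidized peroxiredoxins, did not pass. Sesn2 fell, but from few reads, with 27 counts over the 3 ZT8 libraries and 244 over those of ZT0.

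Among the 17 genes of the glutathione list, 3 rose and 2 fell. The mitochondrial glutaredoxin Glrx5, which serves iron-sulfur cluster assembly, was at 153, 213 and 150.1 CPM at ZT0 and 249, 452 and 373 CPM at ZT8, a log2 change of 1.07 (SE 0.25, edgeR FDR = 0.00895). The glutathione transferase Gstp1 rose by 0.74 and the secreted peroxidase Gpx3 by 0.52. The transferase Gstm1 changed by -0.89 and Gclm, the modifier subunit of the enzyme that starts glutathione synthesis, by -0.71, and both passed. Of the 3 superoxide genes Sod1, the cytosolic dismutase that is mutated in familial ALS, rose by 0.44 (edgeR FDR = 0.0480), from 671 to 906 CPM.

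The 8 genes of the NRF2 list gave 2 rises and 1 fall. Keap1, which holds NRF2 in check, changed by 0.31 and Bach1, a repressor at the same sites, by 0.58, whereas G6pdx, a source of NADPH, changed by -0.91. In the repair list of 5 genes, Park7 (0.54) and the methionine sulfoxide reductase Msrb1 (0.61) rose and Msra (-0.45) fell. At ZT16 against ZT8, 3 of the 42 genes rose and 5 fell, where 9.11% and 7.8% of all genes did, and at ZT20 against ZT8 none passed (0 genes in the whole table). Glrx5, Msrb1 and Msrb2 passed the 24-h cosine (6.24% of all genes), Glrx5 and Msrb1 the test of any time point (6.74%), and none JTK_Cycle (0.0385%). The shares at ZT16 and ZT20 against ZT8 and in the tests over the whole day were near those of all genes and are no result about the lists.

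Against the input, 15 of the 42 genes were enriched and 8 depleted, beside 15.2% and 24.3% of all genes. Park7 (log2 ratio 2.71), Gstp1 (2.53), Sod1 (2.23) and Glrx5 (2.05) had the highest ratios. The lowest belonged to Nfe2l2, which encodes NRF2 (1.08 ± 0.520 CPM against 21.9 CPM), and to the extracellular dismutase Sod3 (1.24 ± 0.501 against 17.3 CPM). Gstm1 was also depleted, with 25.4 ± 7.24 against 189 CPM.

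**Figure D5:**
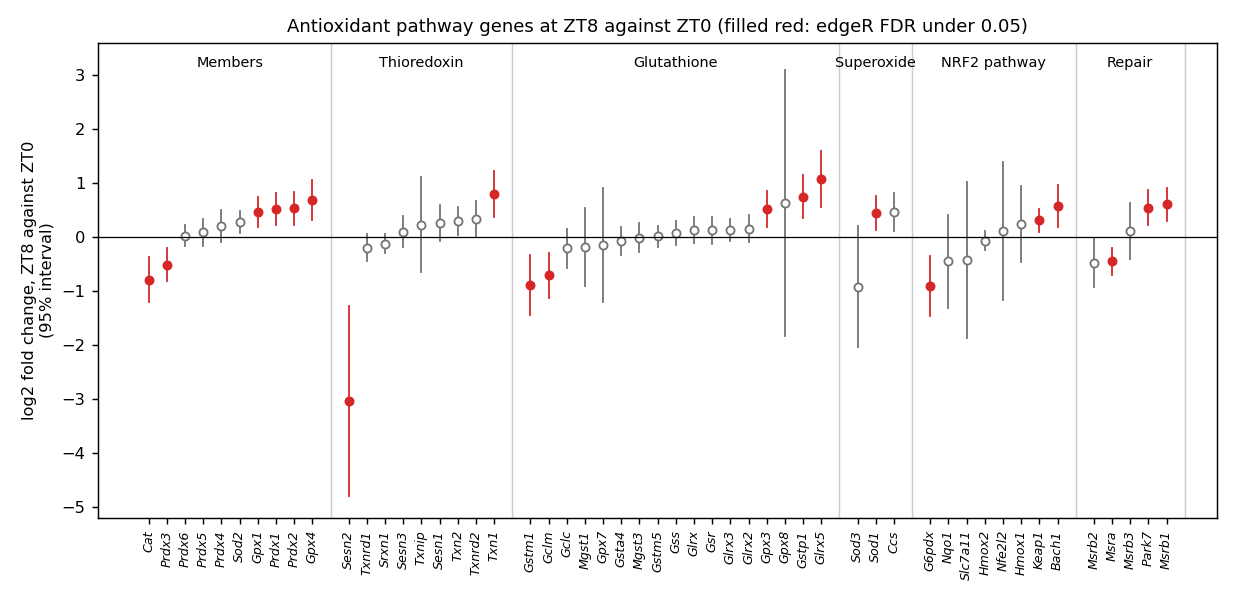
Log2 fold change and 95% interval at ZT8 against ZT0 for the 10 members and for 42 genes of 5 pathway lists, ordered within each list and filled red where the edgeR FDR was under 0.05. Of the 42 genes, 9 are filled above 0 and 5 below, with Glrx5 highest and the low-count Sesn2 lowest among those filled.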

How the data were processed

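RNA on tagged ribosomes was sequenced from 18 immunoprecipitates and 1 pooled input. The authors deposited expected counts for each gene without normalization, made per the labels with STAR 2.7.5 and RSEM on mm10 from stranded poly(A) libraries. The study names an Ensembl annotation, and symbols were matched here to RefSeq on GRCm38.p6. RSEM divides ambiguous reads between similar genes by a model.

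Expected counts were rounded, filtered with filterByExpr and scaled by TMM in edgeR 4.0.16 (R 4.3.3), with a prior count of 2 in log2 CPM. Quasi-likelihood tests (24-h cosinor, any time point, 3 pairs of time points) used all 18 immunoprecipitates, with Benjamini-Hochberg adjustment over all genes at 0.05. JTK_Cycle used periods of 20, 24 and 28 h with an exact null, merging time points of equal cosine. The input was compared, without a test, among genes that passed this filter or had at least 10 counts in the input. Poisson intervals cover counting error only. Replicates are separate animals. Scripts were tested on simulated data.

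All 10 members are named, as are the 3 genes most like the 3 members highest in CPM and the fixed pathway lists, of which examples are given. The members, lists and pairs of time points were chosen with earlier results of these data known. Alternatives were DESeq2 1.42.0, other scalings and filters, a replicate block, leaving out libraries, and other transcript lengths.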

Additional observations from a re-analysis of the deposited data

How the results depend on the processing

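The number of members called changed with the test and the filter. For the 24-h cosine the count of 1 became 5 with DESeq2 and 6 with a filter of at least 1 count. For any time point the count of 2 became 1 with library totals, 6 with DESeq2 and 6 with at least 1 count. For ZT20 against ZT8 it rose from 0 to 1 with DESeq2 and 4 with at least 1 count. JTK_Cycle went from 0 to 2 when adjusted within the gene alone. Leaving out libraries gave ranges of 0 to 6 members for the cosine, 0 to 5 for any time point, 0 to 4 for ZT20 against ZT8, 0 to 7 for ZT8 against ZT0, 0 to 7 for ZT16 against ZT8, and 0 to 0 for JTK_Cycle. Without single libraries, all-gene counts ranged from 2 to 2668 for the cosine, 5 to 2454 for any time point, 0 to 2320 for ZT20 against ZT8, 274 to 4010 for ZT8 against ZT0 and 72 to 3885 for ZT16 against ZT8. Over all genes, the cosine count of 972 became 2312 with DESeq2 and 2349 with at least 1 count, that of any time point 2502 and 2767 instead of 1050, and that of ZT20 against ZT8 was 1114 with DESeq2, 154 with at least 10 counts and 1641 with at least 1 count instead of 0. JTK_Cycle called 6 genes, none with a 24 h period alone and 2465 within the gene alone.

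Replicate numbers showed no sign of pairing the samples, though this does not settle how they were handled. Same-numbered libraries had correlations of their deviations from -0.151 to 0.176 (median -0.00416). Those of different number had -0.210 to 0.183 (median -0.00274). With a replicate block, JTK_Cycle called 1 member (Prdx3) and 355 genes, ZT20 against ZT8 called 7 genes, and the members called in the edgeR tests stayed at 1, 2, 0, 6 and 5.

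Sod2 at ZT8 against ZT0 passed with DESeq2 (FDR = 0.0198). Small differences that were never called changed sign. Prdx6 at ZT8 against ZT0 became -0.0145 and at ZT20 against ZT8 became 0.0275 with library totals, and the latter 0.00224 with at least 1 count. Without single libraries or replicate numbers, Prdx6 ranged from -0.00875 to 0.0404 at ZT8 against ZT0, from -0.0676 to 0.0345 at ZT16 against ZT8 and from -0.0394 to 0.0464 at ZT20 against ZT8. Prdx4 ranged from -0.254 to 0.0547 and from -0.0880 to 0.0456 in the latter pairs, and Prdx5 from -0.227 to 0.0185 and from -0.0585 to 0.0566.

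Against the input, 5 members were enriched at 1.5-fold and 3 to 4 without a replicate number, and library totals shifted the median ratio of all genes to -0.44 and left 1522 enriched genes instead of 2554 (3911 at 1.5-fold). Prdx5 was at 825 CPM per kb with the median transcript and 430.3 with merged exons. The median and merged lengths, and the sum of Gpx4 with its copy Gpx4-ps2, were chosen after seeing the data, and the sum changed no call of Gpx4. The cause of these moves was not tested.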
